A study of Drosophila melanogaster with 12 samples.

Results

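PM7 is one of 12 plasmatocyte clusters in a single-cell RNA-seq survey of *Drosophila* larval hemocytes, the cells of the fly blood. Its members are the cells to which the authors' deposited cluster column gives the number that the study pairs with the name PM7. There were 421 such cells among 19458 cells of the merged table, which holds 11 libraries, and 15935 cells lay in the other plasmatocyte clusters. The wounded and the unwounded group were both of the genotype Hml-GAL4Δ with UAS-2X EGFP. The *Hml* driver puts EGFP into plasmatocytes, although no cells were sorted by it. Larvae of the wounded group were pricked with a tungsten needle at 96 hr after egg laying (AEL), those of the unwounded group were left intact, and hemocytes of both were taken 24 hr later and cleaned on a density gradient. In each of these groups, 10X Chromium served for replicates 1 and 2, and inDrops for replicates 3 and 4, in which the wounded and unwounded cells of a number were multiplexed. The wasp inf. 24 hr group consisted of larvae of the wild type strain OreR, without the reporter. They were exposed to the parasitoid wasp *Leptopilina boulardi* (strain G486) at 72 hr AEL and bled 24 hr later, without a gradient, for 3 Drop-seq libraries. Another 3 Drop-seq libraries, wasp inf. 48 hr, came from OreR larvae bled 48 hr after exposure, and the deposited clusters do not cover them. All larvae were vortexed before bleeding to detach sessile hemocytes, and each preparation pooled many animals. Condition, strain, age of the larvae, technology, gradient and annotation cannot be told apart between the wasp libraries and the others.

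Antimicrobial peptides are small secreted proteins that damage bacteria or fungi. In flies their genes are switched on by the Toll pathway, whose transcription factors are Dif and Dorsal, and by the Imd pathway, which begins with peptidoglycan recognition proteins (PGRPs) that bind bacterial cell walls and ends with the transcription factor Relish (*Rel*). The fat body is the main source of these peptides after infection, and hemocytes are known to express them too. Thioester proteins (Teps) are secreted relatives of complement factors.

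PM7 made up a small and uneven part of the libraries. It held 47, 23, 13 and 111 cells in wounded replicates 1 to 4, which were 1.98%, 1.08%, 0.730% and 3.83% of their cells. The wasp inf. 24 hr libraries had 12, 159 and 12 such cells, which were 6.63%, 8.05% and 0.299%. In unwounded replicates 1 to 4 it held 2, 42, 0 and 0 cells, so that 1 library gave nearly all unwounded PM7 cells. Unwounded replicate 2 had 5.21% (95% exact Clopper-Pearson interval from 3.78% to 6.98%), while unwounded replicate 3 had 0 of 2043 cells, which allows a share of up to 0.147%. Shares therefore varied more between replicates of a condition than their counting intervals allow. The genes that define the cluster also differed between conditions (below), so no order of the conditions is drawn from these shares. The 8 libraries with at least 10 PM7 cells entered all further comparisons, in which the PM7 cells of a library were set against all other plasmatocytes of the same library. Of these 8, 4 were wounded, 3 were wasp inf. 24 hr and 1 was unwounded (replicate 2).

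**Figure D1:**
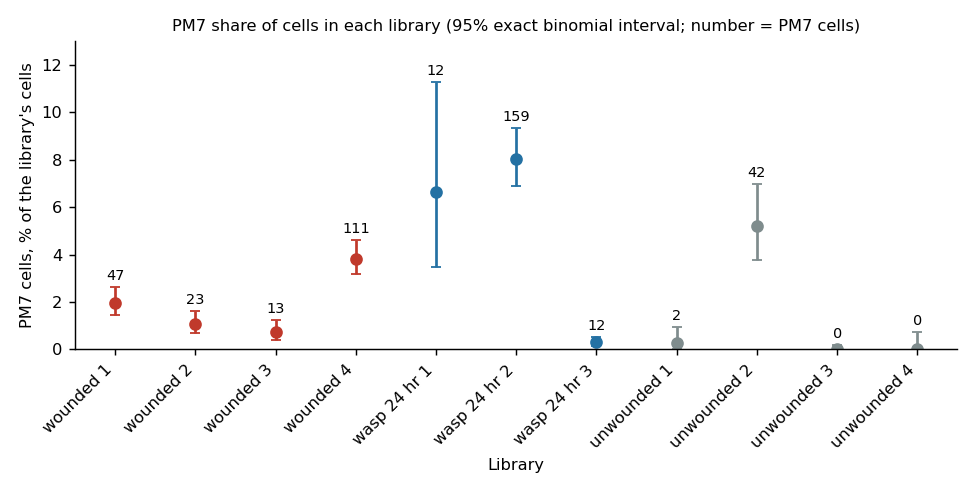
PM7 cells as a percent of the cells of each of the 11 libraries (vertical axis), with 95% exact binomial intervals as bars and the number of PM7 cells above each point. The wounded libraries lie between 0.730% and 3.83%, the wasp inf. 24 hr libraries between 0.299% and 8.05%, and the unwounded libraries between 0% and 5.21%.

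PM7 cells held more unique molecular identifiers (UMIs, which count captured transcripts) than the other plasmatocytes of their library. The median per cell ranged from 2397 to 15991.5 UMIs in PM7 and from 1781.5 to 12553 UMIs in the other plasmatocytes of these 8 libraries. The median was higher in PM7 in 8 of 8 libraries, by 1.29 times on average (exact two-sided sign-flip permutation test over libraries, p = 0.0078, the smallest that 8 libraries allow). The clusters were found from the UMIs of these same cells, and the p-values on depth and on genes per cell do not allow for that choice. Without the cluster PM1 in the comparison, the ratio was 1.11, higher in 5 of 8 libraries (exact p = 0.172). After each cell was thinned to 1000 UMIs, the number of genes per cell did not differ beyond its spread (ratio 1.00, higher in 3 of 8 libraries, exact p = 0.953). Mitochondrial genes gave a median of 3.02% to 15.8% of UMIs in PM7 cells and of 3.61% to 17.6% in other plasmatocytes. Cell barcodes were shared by 5 of 55 pairs of libraries, 59 in all and 44 of them between wounded replicates 3 and 4, and 2 of these were PM7 cells in 1 of the libraries.

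The label of the cluster held in the wounded libraries, and only in part elsewhere. Peptide genes (17 that the merged table holds) gave 3.18%, 4.06%, 4.17% and 5.62% of all UMIs in PM7 cells of wounded replicates 1 to 4, against 0.208%, 0.0990%, 0.422% and 0.391% in other plasmatocytes. In wasp inf. 24 hr replicates 1 to 3 they gave 0.630%, 1.26% and 0.424% in PM7 cells, against 0.215%, 0.470% and 0.0647%. PM7 cells of unwounded replicate 2 had 0.152%, against 0.0407%, and their median cell had 0.0574%. The PM7 cells of that library thus had less peptide RNA than the other plasmatocytes of each wounded library except replicate 2. The clusters were found from these cells, so that these levels describe the cluster and no test is made of them. Fewer cells of a type and less RNA per cell cannot be told apart where sums over cells are compared.

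The 5 marker genes split into those that marked PM7 in wounded larvae and those that marked it in most libraries. Levels are TMM-scaled CPM, the UMIs of a gene per 1000000 UMIs, summed over the cells of a class in a library. *Mtk* (Metchnikowin, an antifungal peptide gene, FBgn0014865) was at 12028, 17594, 18008 and 39883 CPM in PM7 cells of wounded replicates 1 to 4, against 753, 271, 2990 and 2564 CPM in other plasmatocytes. *Mtk* was at 89.3, 0.839 and 0 CPM in PM7 cells, from 18, 1 and 0 UMIs, against 41.1, 16.6 and 1.55 CPM, in the wasp libraries. In unwounded replicate 2 it was at 863 CPM in PM7 cells, against 119 CPM. *Mtk* therefore separated PM7 from the rest in all wounded libraries, with no overlap of levels between the classes, and had at most 1 UMI in the PM7 cells of wasp inf. 24 hr replicates 2 and 3. In wasp inf. 24 hr replicate 1 it was above other plasmatocytes, with a UMI in 3 of 12 PM7 cells.

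*Drs* (Drosomycin, an antifungal peptide gene that responds to Toll, FBgn0283461; 3L, 3369556 to 3369942, plus strand) followed the same division. It was at 10926 ± 2978 CPM in PM7 cells of wounded libraries, against 981 ± 405 CPM in other plasmatocytes (SD, n = 4). In the wasp inf. 24 hr libraries it was at 189, 0.839 and 9.55 CPM in PM7 cells, against 0, 218 and 22.9 CPM, so that PM7 was the higher class in 1 of 3. *DptB* (Diptericin B, a peptide gene that responds to Imd, FBgn0034407) was at 363, 2105, 1505 and 3849.5 CPM in PM7 cells of wounded replicates 1 to 4, against 15.2, 1.56, 30.5 and 60.3 CPM. It had 0 UMIs in PM7 cells of the 3 wasp inf. 24 hr libraries, which allows up to 1.62 CPM over them together, and 30 UMIs (1.24 CPM) in the other plasmatocytes, so no fold is given. The PM7 cells of unwounded replicate 2 also had 0 *DptB* UMIs.

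*CecC* (Cecropin C, FBgn0000279; 3R, 30216484 to 30216938, plus strand) and *CG43236* (FBgn0262881, *Mtkl* in the newer annotation) were higher in PM7 in 8 of 8 libraries. *CecC* was at 936, 1400.5, 1540.5 and 4578 CPM in PM7 cells of wounded replicates 1 to 4, against 54.5, 7.31, 139 and 202 CPM in other plasmatocytes. After wasp infestation it was at 1315, 4430 and 621 CPM in PM7 cells, against 424, 1671 and 175 CPM. *CG43236* was at 1349 ± 485 CPM in PM7 cells, against 191 ± 65.9 CPM, in wounded libraries (SD, n = 4), and at 381 ± 184 CPM, against 224 ± 212 CPM, in wasp inf. 24 hr libraries (SD, n = 3). The spread of *CG43236* between wasp libraries was as large as its difference between the classes. Cecropin genes are similar in sequence and may share reads, so that the level of each is uncertain.

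Other peptide genes marked PM7 in the wasp libraries. *CecA1* was at 531, 2567 and 296 CPM in PM7 cells of wasp inf. 24 hr replicates 1 to 3, against 214, 743 and 58.0 CPM in other plasmatocytes. *CecA2* was at 799, 5144 and 563 CPM, against 478, 1671 and 150 CPM. *Dro* (Drosocin) was at 670, 1725 and 831 CPM, against 424, 283 and 129 CPM. *AttB* (Attacin B) was at 566, 567 and 592 CPM, against 46.2, 122 and 24.6 CPM, and had the narrowest range of these genes over the wasp libraries. In wounded libraries the means in PM7 cells were 93.4 CPM for *CecA1*, 91.1 CPM for *CecA2* and 25.5 CPM for *Dro*, far below those of the wasp libraries. *AttB* averaged 383 CPM there, and its range overlapped that of the wasp libraries. All 4 genes were also higher in PM7 than in other plasmatocytes in 4 of 4 wounded libraries. *AttD* (Attacin D) was at 1162 ± 712 CPM in PM7 cells, against 27.7 ± 34.6 CPM, in wounded libraries (SD, n = 4), but at 62.45 ± 16.2 CPM, against 34.1 ± 24.1 CPM, in wasp inf. 24 hr libraries (SD, n = 3).

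**Figure D2:**
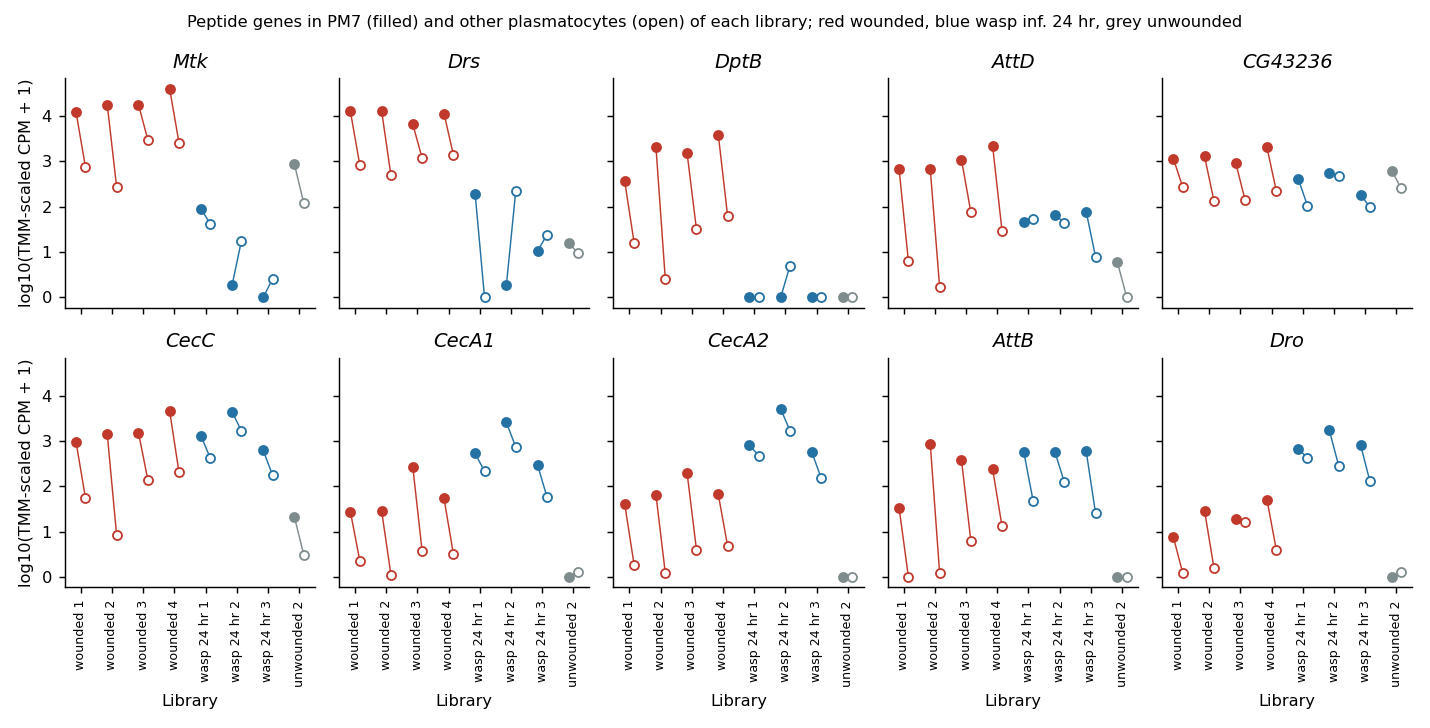
Levels of 10 peptide genes in each of the 8 libraries, as log10 of TMM-scaled CPM + 1 (vertical axis), with PM7 filled and left and other plasmatocytes open and right. *Mtk*, *Drs*, *DptB* and *AttD* separate the classes most in wounded libraries (red), while *CecA1*, *CecA2* and *Dro* reach their highest PM7 levels in wasp inf. 24 hr libraries (blue).

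Detection per cell showed the same, and crystal cells of the same libraries are given beside it. At 1000 UMIs per cell, *Mtk* was found in 95.7%, 87.0%, 100% and 100% of PM7 cells of wounded replicates 1 to 4, against 28.3%, 17.2%, 53.6% and 39.6% of other plasmatocytes. Crystal cells had it in 26.1%, 19.8%, 69.7% and 37.5%, above other plasmatocytes in replicates 2 and 3 and below them in replicates 1 and 4. Whether free RNA or expression in these cells gave these shares was not tested. Without thinning the PM7 shares were 97.9%, 100%, 100% and 100%. *CecC* was found at 1000 UMIs in 41.7%, 92.5% and 25.0% of PM7 cells of wasp inf. 24 hr replicates 1 to 3, against 36.4%, 47.4% and 10.9% of other plasmatocytes. Crystal cells of replicates 2 and 3 had it in 14.6% and 12.7%, so that its share in other plasmatocytes exceeded that of crystal cells in replicate 2 but not in replicate 3.

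Peptide RNA was graded over the plasmatocyte clusters rather than found in PM7 alone. In wounded libraries the summed level of the peptide genes, without TMM scaling, was 42572 ± 10102 CPM in PM7 (SD, n = 4), against 13213 ± 1710 CPM in PM6 (SD, n = 2 libraries with at least 10 cells) and 7394 ± 4855 CPM in PM3 (SD, n = 4). In wasp inf. 24 hr libraries it was 7706 ± 4346 CPM in PM7 (SD, n = 3), against 4687 ± 1649 CPM in PM6 (SD, n = 3) and 3983 ± 1826 CPM in PM3 (SD, n = 2). The ranges of PM7 and PM6 did not overlap in wounded libraries (31829 to 56208 CPM in PM7, against 12003 to 14422 CPM in PM6). They did overlap after wasp infestation (4236 to 12581 CPM in PM7, against 2952 to 6233 CPM in PM6). These ranges run over libraries, so their overlap does not tell whether PM7 exceeded PM6 within each library. In unwounded replicate 2 the sum was 1519 CPM in PM7, against 1001 CPM in PM3.

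**Figure D3:**
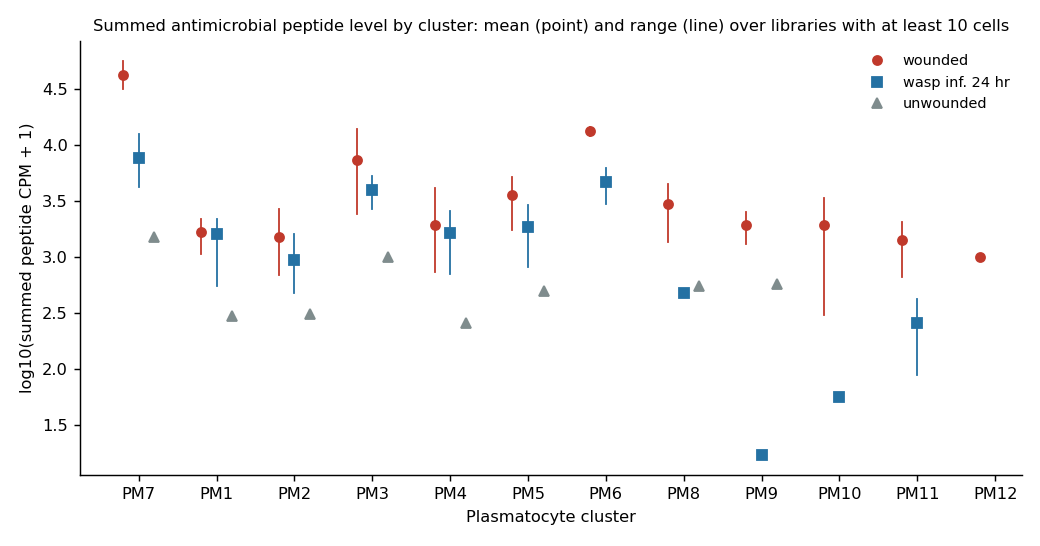
Summed level of the peptide genes in each plasmatocyte cluster, as log10 of CPM + 1 (vertical axis), with the mean as a point and the range over libraries with at least 10 cells of the cluster as a line. PM7 has the highest mean in each condition, followed by PM6 and PM3 in wounded and wasp inf. 24 hr libraries, and the unwounded points come from replicate 2 alone.

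Next, all genes besides the peptides were compared between PM7 and the other plasmatocytes. A gene was counted as higher or lower with a fitted log2 fold change of at least 1 in size and the same direction in at least 7 of the 8 libraries. By this rule 12 of 7595 genes were higher in PM7 (0.158%) and 141 were lower (1.86%), as a description of the clusters and without a test. These counts pool PM7 cells of wounded libraries with those of the wasp libraries and unwounded replicate 2, in which *DptB* had 0 UMIs and *Mtk* and *Drs* were far below their wounded levels. Whether the cells of these libraries are in 1 state was not tested. The median over all genes was -0.14 on the log2 scale. Of the 12 higher genes, 4 are parts of immune recognition or of its output. *PGRP-SD* (FBgn0035806; 3L, 7651180 to 7651900, plus strand), a secreted receptor for peptidoglycan, had the largest difference, with a log2 fold change of 4.80 (SE 0.41). *PGRP-LB* (FBgn0037906; 3R, 11452849 to 11460552, minus strand), an amidase that cuts peptidoglycan and thereby limits Imd signalling, had 2.71 (SE 0.38). *PGRP-SA* (FBgn0030310; X, 11561643 to 11562779, plus strand), a receptor upstream of Toll, had 1.80 (SE 0.34). *Rel* (FBgn0014018; 3R, 9044183 to 9047977, minus strand), the transcription factor of the Imd pathway, had 1.10 (SE 0.18).

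Per library, the ratio of *PGRP-LB* was larger in each wounded library than in each wasp inf. 24 hr library. *PGRP-SD* was at 98.9, 315, 88.5 and 326 CPM in PM7 cells of wounded replicates 1 to 4, against 1.30, 0.719, 14.3 and 10.6 CPM in other plasmatocytes. In wasp inf. 24 hr libraries it had 1, 18 and 1 UMIs in PM7 cells, and in unwounded replicate 2 it had 0 in both classes. *PGRP-LB* was at 65.9, 37.1, 567 and 1139 CPM in PM7 cells of wounded libraries, against 1.74, 1.32, 23.9 and 21.3 CPM, and at 124, 230 and 124 CPM, against 129, 98.4 and 73.0 CPM, in wasp inf. 24 hr libraries. *Rel* was at 178, 269, 496 and 372 CPM in PM7 cells of wounded libraries, against 73.8, 54.5, 221 and 90.4 CPM, and was higher in PM7 in all 8 libraries. In wasp inf. 24 hr libraries *Rel* was at 506, 1202 and 649 CPM, against 342, 1120 and 562 CPM, a small difference beside the spread between libraries. In unwounded replicate 2 *Rel* was at 180 CPM, against 57.5 CPM.

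*Tep1* (FBgn0041183; 2L, 15888640 to 15893811, minus strand), a thioester protein gene, had a log2 fold change of 1.66 (SE 0.22). It was at 921 ± 69.1 CPM in PM7 cells of wounded libraries, against 150 ± 63.8 CPM (SD, n = 4). In wasp inf. 24 hr libraries *Tep1* was at 1365, 1230.1 and 2234 CPM in PM7 cells, against 502, 1170 and 1815 CPM, so that its level was high in both classes. *CG33225* (FBgn0053225), a gene without a named function in the files, had 1.77 (SE 0.19) and was higher in PM7 in 8 of 8 libraries. Its levels in wasp inf. 24 hr replicates 1 to 3 were 159, 1721 and 640 CPM in PM7 cells, against 78.1, 498 and 207 CPM. *CG43175* (FBgn0262794; 3R, 17630717 to 17645262, plus strand), a gene without a named function in the files, had 1.72 (SE 0.23). It was at 1444 ± 442 CPM in PM7 cells of wounded libraries, against 249 ± 138 CPM (SD, n = 4), and at 141 ± 60.2 CPM, against 106 ± 20.9 CPM (SD, n = 3), in wasp inf. 24 hr libraries.

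The gene *CG43175* begins 4.63 kb from *AttD* on the same strand. It was the only 1 of the 12 higher genes (8.33%) within 10 kb of a peptide gene, where 0.423% of all genes tested with a known position lay. The other members of the 12 were *Nha2*, a sodium/proton antiporter gene (2.77, SE 0.37), *CG32170* (1.82, SE 0.45), *CG10126* (1.47, SE 0.24), *ome*, which encodes a dipeptidyl peptidase (1.28, SE 0.23), and the noncoding RNA gene *CG32368* (1.21, SE 0.32). Their highest level in PM7 cells of any library was 336 CPM for *ome*, 318 CPM for *CG10126* and 146 CPM for *Nha2*. Of the 12 genes, 4 were higher in all 8 libraries. The depth of PM7 cells was also higher, and with every cell thinned to 1000 UMIs 5 genes were counted as higher and 53 as lower. Without wasp inf. 24 hr replicate 2, 28 genes were higher, without replicate 3 of that condition 22, and without its replicate 1, 302 were lower.

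**Figure D4:**
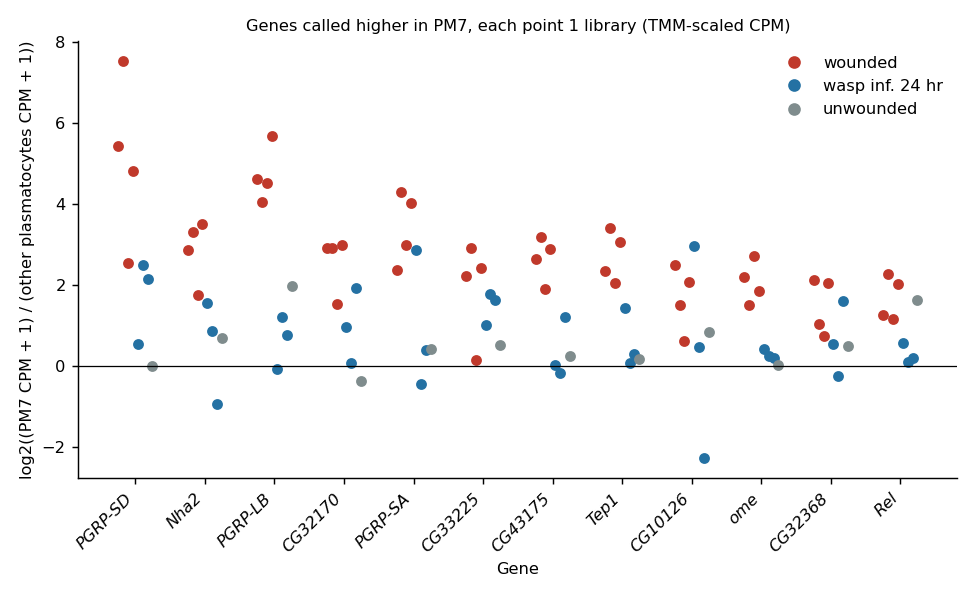
Difference between PM7 and other plasmatocytes in each library for the 12 genes counted as higher, as log2 of the ratio of TMM-scaled CPM, 1 added to each (vertical axis), with 1 point per library. Wounded libraries (red) lie above 0 for every gene, while some wasp inf. 24 hr (blue) and unwounded (grey) points lie at or below 0. For *Rel*, *CG33225* and *CG10126*, among others, points of these conditions lie among or above the wounded ones.

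Of the Imd genes 26 were tested, of which 3 were higher, beside 0.158% of all genes, and 1 was lower, beside 1.86% (*trbd*, an inhibitor of Imd signalling, at -1.23 from 6 PM7 UMIs), with a median of 0.04 over the list. The summed level of the Imd list was 2163 to 5186 CPM in PM7, against 2120 to 3438 CPM, and was higher in PM7 in 8 of 8 libraries. Of 16 Toll genes 1 was higher (*PGRP-SA*) and 0 were lower, with a median of 0.05. No member of the JNK list (16 tested) or the JAK/STAT list (11 tested) was counted in either direction, and their medians were 0.07 and -0.20. The 20 heat shock genes (median -0.25), 25 genes of the endoplasmic reticulum and secretion (median -0.22) and 90 ribosomal protein genes (median -0.17) also had no counted member. Of 4 thioester genes 1 was higher (*Tep1*). Of the 5 Bomanin and other immune-induced peptide genes 0 were counted. The lists were chosen with results of these data known, and their medians stand beside -0.14 for all genes.

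PM7 cells had less RNA of several plasmatocyte genes than the other plasmatocytes together, most of all after wasp infestation. Against PM6 no tested plasmatocyte marker or matrix gene was counted as lower (below), so this was not shown to be particular to PM7. *NimC1* (FBgn0259896; 2L, 13973158 to 13976769, minus strand), a phagocytosis receptor that marks plasmatocytes, had a log2 fold change of -1.29 (SE 0.29). It was at 85.6 ± 12.7 CPM in PM7 cells of wounded libraries, against 102 ± 20.2 CPM (SD, n = 4), and at 4.96, 7.55 and 19.1 CPM in PM7 cells of wasp inf. 24 hr libraries, against 37.0, 174 and 130 CPM. *vkg* (FBgn0016075; 2L, 5012144 to 5028191, minus strand), a collagen IV gene, had -1.25 (SE 0.22). Its levels were 0, 55.4 and 47.7 CPM in PM7 cells of wasp inf. 24 hr libraries, against 91.4, 518 and 183 CPM. *Glt* (FBgn0001114; 2L, 8672698 to 8676804, plus strand), which encodes the matrix glycoprotein Glutactin, had -1.27 (SE 0.25), with 2864 ± 635 CPM in PM7 cells of wounded libraries, against 5035 ± 525 CPM (SD, n = 4). In unwounded replicate 2 both *vkg* and *Glt* were higher in PM7 (2504 against 1936 CPM and 8910 against 6759 CPM). Of 10 plasmatocyte markers 2 were lower (*NimC1* and *vkg*, median -0.53), and of 13 matrix and clotting genes 2 were lower (*Glt* and *vkg*, median -0.62), beside 1.86% lower and a median of -0.14 over all genes. The sums of these lists were higher in PM7 in 2 of 8 libraries, unwounded replicate 2 and wasp inf. 24 hr replicate 1. In the wasp library they were 3043 CPM in PM7, against 2672 CPM, for the plasmatocyte markers and 2377 CPM, against 2304 CPM, for the matrix and clotting genes. General plasmatocyte genes were detected in PM7 cells of the 8 libraries together, as *Hml* had 6624 UMIs, *srp* 422, *eater* 732 and *He* 3624. Pooled over these libraries, *Hml* was at 2523 CPM in PM7, against 4067 CPM, *srp* at 161, against 245 CPM, and *eater* at 279, against 484 CPM. *He* was at 1380 CPM, against 1304 CPM. These pooled levels do not compare the classes within a library.

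Markers of other cell types were summed in both classes, and their part in the results was not tested. The summed level of 10 fat body markers was 10.4 to 114 CPM in PM7, against 18.2 to 103 CPM, and was higher in PM7 in 3 of 8 libraries, and the larval serum protein gene *Lsp1alpha* and *Fbp2* had 0 UMIs in PM7 cells. That of 10 lamellocyte markers was 331 to 1221 CPM, against 482 to 1138 CPM, higher in PM7 in 6 of 8. That of 8 crystal cell markers was 31.1 to 1176 CPM, against 56.9 to 1428 CPM, and was higher in PM7 in only 1 of 8, wasp inf. 24 hr replicate 1. Over the 8 libraries together *PPO2*, a prophenoloxidase gene of crystal cells, was at 51.8 CPM in PM7 cells, against 229 CPM, and *lz* had 5 UMIs in PM7 cells. Such pooled levels weight each library by its UMIs. Wasp inf. 24 hr replicate 2 held the most PM7 UMIs (1563624), but replicate 3 held the most UMIs of other plasmatocytes (14028699). Differences between pooled levels thus mix class with library. Muscle markers summed to 0 to 149 CPM, against 14.4 to 235 CPM, higher in PM7 in 3 of 8, and 2 of 9 tested were lower (*bt*, -1.45, SE 0.31, and *Mf*, -1.11, SE 0.74). Lymph gland progenitor markers (8 genes) had a higher sum in PM7 in 8 of 8 libraries, at 8835 to 42940 CPM, against 7132 to 39170 CPM, with 0 of 8 counted as higher. Most of this sum was *Nplp2*, with 61253 UMIs in PM7 cells, while *Ance* came next with 6805. Pooled in the same way, and with the same limit, *Nplp2* was at 23330 CPM in PM7, against 24870 CPM, and *Ance* at 2592 CPM, against 1057 CPM. No salivary gland marker was in the table, and cuticle markers reached 321 CPM in PM7 and 395 CPM in other plasmatocytes, with a higher sum in PM7 in 1 of 8 libraries.

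The lowest of the 141 lower genes rested to different degrees on 3 cells outside PM7. *fan*, *CG43293*, *CG7886*, *CG32485*, *UQCR-14L*, *mlt*, *Cyt-c1L* and *CG14763* had the largest negative differences and 0 UMIs in PM7, and their fitted folds are no bounds. Pooled over the 8 libraries, with 3 UMIs allowed in PM7, *fan* was at least 7.03-fold lower and *mlt* at least 2.78-fold lower, with the other 6 between them. The 2 classes drew on the libraries in unequal parts, so these values do not bound the difference within a library. For *fan*, 371 of its 394 UMIs in other plasmatocytes came from 3 PM6 barcodes that hold 156599, 194048 and 203407 UMIs and 7116 to 7430 genes each, from wounded replicate 2 and unwounded replicate 2. *CG7886* had 95.3% of its UMIs there, the most of the 8 genes, while *CG32485* had 47.2% and *mlt* 35.9%. Without these 3 cells, a comparison chosen after the data were seen, 11 genes were higher (*CG43175* no longer counted) and 86 were lower, of which 82 were among the 141.

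Since the markers differed between conditions, PM7 was also compared within each condition, which was decided after the data were seen. In the 4 wounded libraries, 76 of 7157 genes were higher in all 4 (1.06%) and 343 were lower (4.79%). PGRP and thioester genes were among them, and the genes given here and for the wasp libraries were chosen after their values were seen. *PGRP-LB* had a log2 fold change of 5.27 (SE 0.25), *PGRP-SD* 5.42 (SE 0.31), *PGRP-SC2* 4.18 (SE 0.42), *PGRP-SA* 3.71 (SE 0.40), *Tep2* 3.25 (SE 0.33) and *Tep1* 2.74 (SE 0.17). *Rel* (1.72, SE 0.19) and *pirk*, a gene whose product restrains Imd signalling at the receptor (1.61, SE 0.37), were also higher, so that 5 of 25 Imd genes were. *CG45045*, a gene without a named function in the files, had 4.66 (SE 0.19), with 567, 414, 535 and 681 CPM in PM7 cells, against 6.79 to 49.1 CPM. All but 1 of the 12 peptide genes tested were higher.

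In the 3 wasp inf. 24 hr libraries, 39 of 5501 genes were higher in all 3 (0.709%) and 124 were lower (2.25%). *PGRP-SD* (2.68, SE 0.71) and *CG33225* (1.66, SE 0.18) were among the higher genes, as was *grass*, a protease gene of the Toll pathway (1.23, SE 0.35). The lower genes held *NimC1* (-4.03, SE 0.44), the scavenger receptor gene *Sr-CI* (-2.97, SE 0.39), *drpr*, a receptor for the engulfment of dying cells (-1.85, SE 0.48), *Glt* (-3.47, SE 0.52), *vkg* (-3.09, SE 0.37) and *LanB2*, a laminin gene (-1.28, SE 0.32). So 3 of 9 plasmatocyte markers and 3 of 10 matrix and clotting genes were lower. Wounded and wasp inf. 24 hr libraries shared 3 higher genes (*CG33225*, *PGRP-SD* and *Reg-2*), 3.95% of the first list and 7.69% of the second, and 12 lower genes, 9.68% of the 124. In wasp inf. 24 hr replicate 1, *PGRP-SD* was at 4.86 CPM in PM7 cells, against 2.81 CPM, and *Reg-2* at 4.86 CPM, against 4.68 CPM. The direction of these 2 genes in that library thus rested on very few UMIs. Of the peptide genes 8 of 12 were higher in all 3 wasp libraries.

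To test whether the PM7 difference itself changed between conditions, its interaction with condition was fitted with edgeR's quasi-likelihood test over 4 wounded and 3 wasp inf. 24 hr libraries. The clusters were found from the same cells, so this compares the conditions and is no test of PM7 against the rest. The authors clustered on the most variable genes, and which genes below were among them was not checked. The p-values of this fit and of the technology comparison do not allow for that choice of cells. The PM7 difference was larger after wasp infestation for 10 of 6540 genes (0.153%) and smaller for 96 (1.47%) at a Benjamini-Hochberg adjusted p under 0.05. Larger and smaller refer here and below to the signed log2 difference, not to its size. A gene alike in both classes of wounded libraries but lower in PM7 after wasp infestation therefore also counts as smaller. The peptide genes marked the cluster in these same cells, so their values are given as a description, with no test. The fitted difference was -4.72 on the log2 scale for *Mtk* (SE 0.36), -4.54 for *Drs* (SE 0.39), -3.25 for *CecC* (SE 0.27) and -1.95 for *CG43236* (SE 0.29). The fitted value of -12.73 for *DptB* is no bound, since its PM7 cells had 0 UMIs after wasp infestation. *CecA2* (-4.07, SE 0.42) and *AttB* (-3.32, SE 0.36) also had negative values, and their levels in other plasmatocytes were higher in each wasp library than in each wounded library. *Dro* had -1.46 (SE 0.50). The counts of 10 and 96 include the 14 peptide genes fitted, of which 11 were among the smaller ones and 0 among the larger ones. This count, too, is a description, since these genes marked the cluster.

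Of 25 Imd genes 4 had a smaller PM7 difference after wasp infestation and 0 a larger one, beside the 1.47% and 0.153% of all genes, peptides included. *PGRP-LB* had -4.59 (SE 0.35, adjusted p = 6.38e-35), *PGRP-SD* -2.91 (SE 0.68, adjusted p = 0.00189), *PGRP-SC2* -2.84 (SE 0.67, adjusted p = 0.00222) and *Rel* -1.52 (SE 0.29, adjusted p = 2.45e-05). The recognition genes *PGRP-LA*, *PGRP-LC*, *PGRP-LE* and *PGRP-LF* did not pass (adjusted p from 0.737 for *PGRP-LF* to 0.981 for *PGRP-LA*). Of the Toll list *PGRP-SA* passed, with -3.12 (SE 0.43, adjusted p = 1.97e-10), and of the thioester list 2 of 4 did, *Tep1* with -2.24 (SE 0.27, adjusted p = 1.47e-14) and *Tep2* with -2.45 (SE 0.44, adjusted p = 4.95e-06). The plasmatocyte genes that were lower in PM7 after wasp infestation passed as well, among them *NimC1* (-3.97, SE 0.53, adjusted p = 2.25e-11) and *Glt* (-2.87, SE 0.32, adjusted p = 1.39e-16), and 3 of 9 plasmatocyte markers did so in all. *CG33225* did not pass (-0.70, SE 0.30, adjusted p = 0.447). Without wasp inf. 24 hr replicate 2, which held most PM7 cells of that condition, 10 and 31 genes passed, without replicate 1 of that condition 5 and 103, without wounded replicate 1 3 and 78, and without wounded replicate 4 11 and 56.

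*CG8501* had the next largest value after *DptB*, at -11.41 (adjusted p = 8.64e-32). In wounded libraries it was alike in both classes, at 3812, 3728, 2603 and 2929 CPM in PM7 cells, against 3035, 3445, 3614 and 2662 CPM. In the wasp inf. 24 hr libraries it had 0 UMIs in PM7 cells, against 90.4, 108 and 84.7 CPM in other plasmatocytes, which over the libraries together was at least 49.5-fold lower. PM6 cells of the wasp libraries had 0.395 CPM, and PM9, PM10 and PM11 had 0, while PM3 had 319 CPM, so that the absence was not particular to PM7. *CG43920*, *CG15210* and *CG7607* also passed in this direction, from 7, 4 and 15 PM7 UMIs in wounded libraries and 0 in wasp libraries. Among the genes with a larger PM7 difference, *CG44250* and *CG4793* had 0 UMIs in PM7 cells of wounded libraries, and their fitted values of 8.44 and 8.40 are no bounds. *CG3348* (1.97, SE 0.52, adjusted p = 0.0121), *NimB1*, a secreted Nimrod protein gene (1.81, SE 0.46, adjusted p = 0.00876), and *lncRNA:CR43855* (1.80, SE 0.28, adjusted p = 2.87e-08) completed the 5 largest. *NimB1* was at 427, 456 and 401 CPM in PM7 cells of wasp inf. 24 hr libraries, against 347, 420 and 355 CPM, and at 13.2, 27.8, 0 and 23.0 CPM in wounded libraries, against 59.9, 84.8, 57.4 and 48.9 CPM. *NimB1* was thus lower in PM7 than in other plasmatocytes in 4 of 4 wounded libraries and higher in 3 of 3 wasp libraries.

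Technology was compared within the wounded libraries, with 2 libraries of each kind that also differ in replicate number. Drop-seq, used for the wasp libraries alone, is not in this comparison. Within the 4 wounded libraries the PM7 difference was larger in 10X Chromium than in inDrops for 4 of 6529 genes (0.0613%) and smaller for 0 (0.0%) by edgeR's quasi-likelihood test, with 141 genes at an unadjusted p under 0.05 and 1 call by DESeq2. With another scaling (RLE), the counts were 7 and 3. The 4 genes were *CG15347* (3.64, SE 0.68, adjusted p = 0.000124), *PGRP-SD* (3.45, SE 0.64, adjusted p = 0.000124) and the peptide genes *AttB* (6.58, SE 0.77) and *AttD* (2.97, SE 0.48), whose values are again a description. *AttB* was at 33.0 and 872 CPM in PM7 cells of the 10X Chromium libraries and at 390 and 238 CPM in those of inDrops, against 0, 0.240, 5.38 and 12.3 CPM in the same order. In other plasmatocytes both 10X Chromium libraries were below both inDrops libraries. *CG15347* rested on wounded replicate 2, whose PM7 cells had 37 of its 45 UMIs in wounded libraries, and without that library the fitted value was -7.76. The counts also rested on single libraries, as 0 genes were larger and 1 was smaller without wounded replicate 2, 7 and 2 without replicate 3, and 25 and 1 without replicate 4.

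PM6 is the cluster most like PM7 in its peptides, and 5 libraries had at least 10 cells of both (wounded replicates 3 and 4 and all wasp inf. 24 hr libraries). Against PM6, 15 of 3521 genes were higher in PM7 in all 5 (0.426%) and 3 were lower (0.0852%), again without a test. *Tep1* led with 2.49 (SE 0.17), followed by *PGRP-SD* (2.14, SE 0.38), *CG42807* and *CG30090* (1.95, SE 0.25). *Tep1* was at 1110, 1091, 1356.5, 1012 and 2417 CPM in PM7 cells, against 151, 163, 264, 263 and 318 CPM in PM6 cells of wounded replicates 3 and 4 and wasp inf. 24 hr replicates 1 to 3. The classes did not overlap, and *Tep1* separated PM7 from PM6 also where it did not separate PM7 from all other plasmatocytes. Without 1 library the counts were 12 to 34 and 2 to 26, with 34 and 2 without wounded replicate 3, 26 and 13 without wounded replicate 4, 33 and 26 without wasp inf. 24 hr replicate 2, and 25 and 8 without replicate 3 of that condition. The lower genes were *srl*, a transcriptional coactivator gene of mitochondrial function (-1.25, SE 0.34), *MBD-R2* (-1.04, SE 0.41) and *CG5033* (-1.02, SE 0.30). Of the 15 higher genes 5 were among the 12 above, *CG43175*, *PGRP-SA*, *PGRP-SD*, *Tep1* and *ome*. Of 9 plasmatocyte markers and 12 matrix and clotting genes tested, 0 were lower in PM7 than in PM6, beside 0.0852% of all genes. Of 12 phagocytosis genes 0 were lower and 1 was higher, beside 0.426% higher.

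The wasp inf. 48 hr libraries were not used to find the clusters and could therefore be tested. Each cell was thinned to 1000 UMIs, cells with 2 or more UMIs of *atilla*, *PPO1* and *PPO2* were left out, and cells with at least 3 UMIs of the 5 markers (peptide-high) were compared with cells with none (peptide-free). There were 32, 39 and 19 peptide-high cells and 567, 508 and 764 peptide-free cells in replicates 1 to 3. Median depth before thinning was 6083.5, 3788 and 5011 UMIs in peptide-high cells and 4702, 4878 and 5145 UMIs in peptide-free cells. Their peptide UMIs came mostly from *CecC* (59, 73 and 6 UMIs) and *CG43236* (48, 55 and 54 UMIs), with 6, 45 and 15 of *Drs*, 2, 15 and 5 of *Mtk* and 0, 2 and 0 of *DptB*. Whether these cells are PM7 cells was not tested.

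Of 3628 genes besides the peptides, 14 were higher (0.386%) and 15 were lower (0.413%) in peptide-high cells by edgeR's quasi-likelihood test, and 20 and 9 with the RLE scaling. Some genes of the Imd pathway were higher in peptide-high cells, in sums over only 32, 39 and 19 such cells of 1000 UMIs each. *Rel* was at 385, 602 and 370 CPM in peptide-high cells, against 97.6, 118 and 157 CPM in peptide-free cells of replicates 1 to 3 (log2 fold change 1.93, SE 0.32, adjusted p = 6.13e-07). *pirk* was at 321, 602 and 231 CPM, against 79.7, 135 and 168 CPM (1.70, SE 0.33, adjusted p = 8.91e-05). *PGRP-LF*, a gene whose product inhibits the Imd receptor, was at 289, 109 and 278 CPM, against 45.8, 55.5 and 81.1 CPM (1.87, SE 0.50, adjusted p = 0.0312). These were 3 of the 14 Imd genes tested, with 0 lower and a median of 0.36 over the list beside -0.17 over all genes. None of the 8 Toll genes tested passed. With classes set without *CG43236* (below), *Rel* was the only one of *Rel*, *pirk* and *PGRP-LF* that passed.

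*CG6553* had the largest value (3.68, SE 0.69, adjusted p = 4.00e-05) but was at 0 CPM in peptide-high cells of replicate 1, and *CG12290* had 2.30 (SE 0.63, adjusted p = 0.0343). *CG33225* was at 1347, 520 and 555 CPM in peptide-high cells, against 221, 273 and 309 CPM (1.60, SE 0.25, adjusted p = 2.50e-07). *CG43175* was at 1636, 1588 and 278 CPM, against 504, 613 and 175 CPM (1.41, SE 0.22, adjusted p = 2.50e-07). *Mmp1*, a matrix metalloproteinase gene that JNK signalling can induce, was the only 1 of 12 JNK genes to pass (1.44, SE 0.29, adjusted p = 0.000225). Of the 12 genes higher in PM7, 5 were tested here and 3 passed, *Rel*, *CG33225* and *CG43175*. *CG10126* had 1.62 (adjusted p = 0.147), and *Tep1* was at 962, 958 and 416 CPM, against 1158, 939 and 805 CPM (-0.28, SE 0.21, adjusted p = 0.788).

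Among the genes lower in peptide-high cells, *stg*, a phosphatase gene that drives entry into mitosis, was at 96.2, 82.1 and 0 CPM, against 269, 220 and 339 CPM (-1.98, SE 0.51, adjusted p = 0.0191), and was also lower in PM7 in 7 of 8 libraries. It was 1 of 13 cell division genes tested, whose median was -1.01. *28SrRNA-Psi:CR45859*, a ribosomal RNA pseudogene with near-identical copies whose level is uncertain, had -1.85 (SE 0.40, adjusted p = 0.000878), and *Hsp60*, a mitochondrial chaperonin gene by its symbol in the files, had -1.65 (SE 0.44, adjusted p = 0.0312). The digestive protease genes *Jon66Ci* and *Jon25Biii* had 0 UMIs in peptide-high cells, so that their fitted values are no bounds, and 43.8, 104 and 209 CPM and 71.7, 153 and 51.2 CPM in peptide-free cells. The calls depended on how the cells were chosen, as they came to 62 higher and 28 lower at 2000 UMIs per cell and to 0 and 0 with at least 5 peptide UMIs, where 4, 10 and 5 cells were left (322 genes at an unadjusted p under 0.05). With classes set by *Mtk*, *Drs*, *DptB* and *CecC* alone, a choice made after the data were seen, *Rel* and *CG43175* were the 2 higher genes and 3 were lower. With the classes set by all 5 markers, 6 genes were higher and 4 lower without replicate 1, 4 and 6 without replicate 2, and 15 and 5 without replicate 3.

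**Figure D5:**
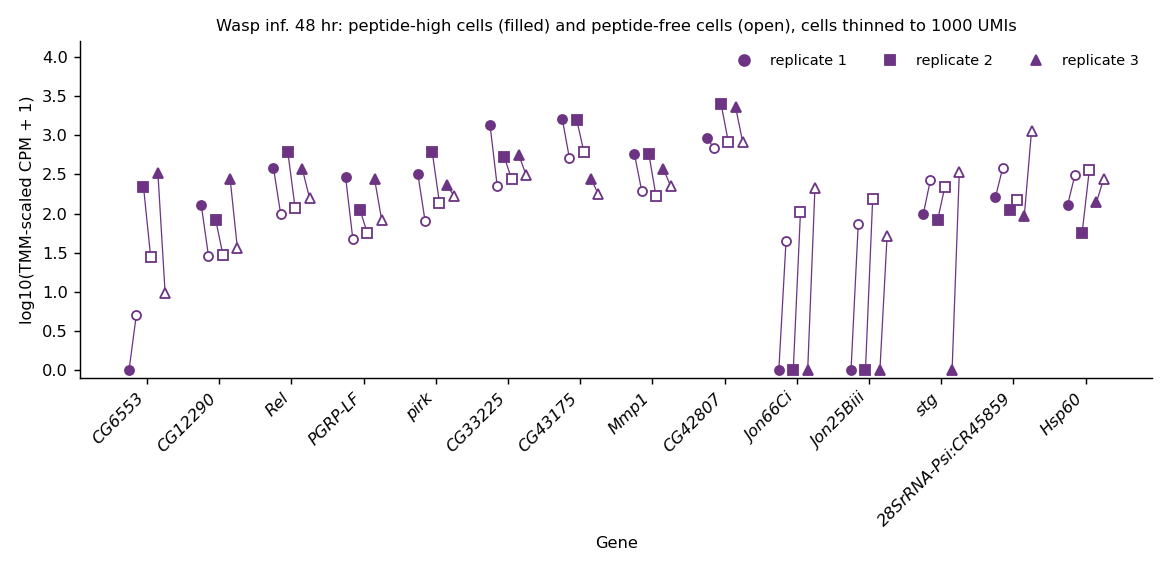
Levels in peptide-high cells (filled, left) and peptide-free cells (open, right) of the 3 wasp inf. 48 hr libraries, as log10 of TMM-scaled CPM + 1 (vertical axis). *Rel*, *PGRP-LF*, *pirk*, *CG33225* and *CG43175* were higher in peptide-high cells in 3 of 3 libraries, while *Jon66Ci* and *Jon25Biii* were at 0 there.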

How the data were processed

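Single-cell RNA-seq of larval hemocytes was analysed. The authors deposited UMI counts that were not normalized, one per gene and cell, from Cell Ranger for 10X Chromium (3.1.0 in the submitters' processing notes), bcbio-nextgen with RapMap for inDrops, and Drop-seq tools with STAR for Drop-seq, with FlyBase or Ensembl annotations of the Release 6 assembly. The authors filtered cells, merged 11 libraries, corrected batches with Harmony, and deposited the cluster of each cell. No doublet caller was run here. The PM7 cells and the gene lists were chosen with earlier results of these data known.

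Counts were summed per library and class and fitted with edgeR 4.0.16 (R 4.3.3; TMM, filterByExpr, library as a covariate), with DESeq2 1.42.0 as an alternative. Peptide genes were left out of the counts for PM7 against other plasmatocytes, within each condition, against PM6 and at 48 hr. They stayed in the counts of the interactions with condition and technology, and in the shares given with them. Genes entered the interactions with at least 1 UMI in each technology. For wasp inf. 48 hr, barcodes had to reach 500 UMIs and 200 genes with no more than 30% of UMIs from mitochondria, and the peptides were left out of library sizes. The main edgeR fits of PM7 against other plasmatocytes, of the interactions with condition and technology and of 48 hr were tested on simulated data. The other fits, among them PM7 against PM6 and those within a condition, were not. Named were the markers, the 12 highest and 8 lowest genes, at most 4 counted members of each list (all for Imd, Toll and JNK), the 5 largest of each test in each direction and the 4 largest against PM6. Libraries of PM7 held 41651 to 1563624 PM7 UMIs. Intervals and zero limits cover counting error only. The sources used here do not say whether libraries of a condition came from separate sets of larvae, so p-values measure the spread between libraries, which may be technical. Wounded and wasp inf. 24 hr libraries share only replicate numbers. Positions are from Ensembl 115 (BDGP6.54). Alternatives were other scalings, filters, references, thresholds, thinning depths, cell classes, a replicate block and leaving out each library.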

Additional observations from a re-analysis of the deposited data

Results flagged for a closer look

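Of 36 groups of 4 libraries screened, 5 held a value far from the other 3, where chance alone gives about 1 in 20. The PM7 share of unwounded replicate 2 (5.21%) stood far above the other unwounded libraries. In wounded replicate 4, PM7 cells had the most *CecC* (4578 CPM), *CG32368* (130 CPM, from 34 UMIs) and *Mf* (15.3 CPM, from 4 UMIs), and in wounded replicate 3 they had the most *CecA1* (266 CPM, from 15 UMIs). All levels are TMM-scaled CPM.

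The PM7 difference changed between wasp inf. 24 hr and wounded libraries by test for *CG8501* (-11.41 on the log2 scale), *CG43920* (-10.61), *CG15210* (-9.43), *CG7607* (-8.49), *lncRNA:CR43855* (1.80), *NimB1* (1.81), *CG3348* (1.97), *CG4793* (8.40) and *CG44250* (8.44). The cluster's own markers had *DptB* -12.73, *Mtk* -4.72, *Drs* -4.54, *CecC* -3.25 and *CG43236* -1.95 in the same fit, given as a description. Those beyond 8 in size rest on 0 UMIs in the PM7 cells of 1 condition. Between 10X Chromium and inDrops within wounded libraries it changed for *CG15347* (3.64) and *PGRP-SD* (3.45), and the peptide genes *AttB* (6.58) and *AttD* (2.97) are given as a description. Technology goes with condition in the first comparison, and their parts cannot be told apart. The p-values behind both comparisons do not allow for the choice of the cells by clustering.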

How the results depend on the processing

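Counts of genes moved more than directions did. For PM7 against other plasmatocytes (12 higher, 141 lower), DESeq2 gave 19 and 74, cells thinned to 1000 UMIs 5 and 53, each other cluster weighted equally 20 and 345, the same direction in 8 of 8 libraries 4 and 43, and a 1.5-fold threshold 41 and 365. No filter on low counts gave 503 lower, the reference without PM6 84 lower, and, chosen after the data were seen, the reference without its 3 very large cells 86 lower, wounded libraries alone 76 and 343, and wasp inf. 24 hr libraries alone 39 higher. Leaving out 1 library gave 11 to 28 higher and 116 to 302 lower. DESeq2 shifted the median of all genes by 0.165 and turned *CG7886* (0.63), *UQCR-14L* (0.64) and *CG14763* (0.60), all at 0 UMIs in PM7. Against PM6 leaving out 1 library gave 12 to 34 and 2 to 26.

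For wasp inf. 24 hr against wounded (10 higher, 96 lower), DESeq2 gave 23 and 43, and leaving out 1 library 3 to 14 and 31 to 103. The replicate block gave 12 and 51 over replicates 1 to 3, against 11 and 56 without wounded replicate 4 and without the block, and the numbers did not pair the samples (correlations of -0.0200, 0.00295 and 0.0125 between libraries of the same number). For 10X Chromium against inDrops (4 higher, 0 lower), RLE gave 7 and 3, no filter 7 and 1, DESeq2 1 higher, and leaving out 1 library 0 to 25 and 0 to 2, with *CG15347* between -7.76 and 5.04. At 48 hr (14 higher, 15 lower), RLE gave 9 lower, no filter 8 and 57, DESeq2 2 lower, at least 5 peptide UMIs 0 and 0, no exclusion of marker-positive cells 54 and 33, 2000 UMIs 62 and 28, classes without *CG43236* 2 and 3, and leaving out 1 library 4 to 15 and 4 to 6. The ratio of depth was 1.11 without PM1 and 1.20 to 1.33 without 1 library.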
